A study of Mus musculus with 8 samples.

Results

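Fatty acid activation and oxidation was followed in AML12 cells through 31 genes, chosen by symbol because their products activate fatty acids, carry them into mitochondria on carnitine, oxidise them in mitochondria or peroxisomes, or pass the electrons on. All 31 were listed among the 55401 genes of each table, and all 31 were among the 12122 genes tested, those that reached a TPM of 1 in 4 or more of the 8 samples. TPM is a transcript level scaled by gene length and brought to a total of 1000000 in every sample, so levels can be set side by side between genes but the sequencing depth behind a value is unknown.

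AML12 is an established line of hepatocytes from mouse liver. The study compared 4 control samples with 4 samples kept for 1 h under Opti-ELF-WMF, a pulsed weak magnetic field with a peak of 100 mG and pulses of 4 ms whose frequency climbed from 1 to 8 Hz within a cycle of 8 s. Both groups were grown in DMEM/F-12 with serum, dexamethasone and insulin-transferrin-selenite, and controls were kept unstimulated in an incubator of their own, so exposure and incubator cannot be told apart. The labels number the samples of each group from 1 to 4 without saying whether they came from separate cultures, so the tests measure the spread between these samples, which may be technical.

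A fatty acid enters oxidation once an acyl-CoA synthetase has joined it to coenzyme A, and the carnitine shuttle then moves long chains across the inner mitochondrial membrane. Each turn of the mitochondrial spiral removes hydrogen, adds water, removes hydrogen again and cleaves off acetyl-CoA, and the electrons of the first step reach ubiquinone through the electron transfer flavoprotein and its dehydrogenase. Peroxisomes shorten very long chains by a related spiral, and in liver the nuclear receptor PPAR alpha is known to govern many of these genes.

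After 1 h, no gene of the pathway passed an adjusted p of 0.05 (limma, Benjamini-Hochberg over all tested genes), and the share of all tested genes that did so was 0%. The trifunctional protein subunit Hadha, the enoyl-CoA hydratase Echs1 and the flavoprotein subunit Etfa lay higher in all 4 exposed samples than in any control sample, by 4 to 6% of the control mean; these 3 members are 9.68% of the list, beside 8.01% of all tested genes. Across the 31 genes, differences were small: the lowest was that of the peroxisomal enzyme Ehhadh at -0.12 on the log2(TPM + 1) scale, and the highest that of the thiolase Acaa2 at 0.10. Transcripts of the mitochondrial genome took a lower share of TPM in every exposed sample, at 5.99 to 7.69% against 8.69 to 9.42% in controls. Taking them out of the total multiplies all genes of a sample by the same factor, which was lower in exposed samples. All 31 differences therefore moved downward by construction.

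Stretches upstream of 5 members are shown first: Hadha, Echs1 and Etfa, whose groups did not overlap, Hadhb, which faces Hadha across the same stretch, and Eci1, whose unadjusted p was under 0.05. Hadha and Hadhb, which encode the alpha and beta subunits of the mitochondrial trifunctional protein, lie head to head on chromosome 5 of GRCm38. Hadha runs on the minus strand at chr5:30118304-30155162 and Hadhb on the plus strand at chr5:30155248-30184593, so their outermost annotated starts are only 85 bases apart. That stretch is followed by 120 bases before the outermost annotated start of Etfa (minus strand, chr9:55454508-55512243), of Echs1 (minus strand, chr7:140105710-140116476) and of Eci1 (plus strand, chr17:24426641-24439348). Acaa2, whose unadjusted p was also under 0.05, is not shown. Sequences are from RefSeq on GRCm38 and gene positions from GENCODE M21. Each reads 5′ to 3′ on the strand named, with motif matches in capitals.
Hadha-Hadhb, chr5:30155163-30155247, plus strand: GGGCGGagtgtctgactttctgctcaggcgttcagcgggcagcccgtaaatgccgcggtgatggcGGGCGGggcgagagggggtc
Etfa, chr9:55512244-55512363, minus strand: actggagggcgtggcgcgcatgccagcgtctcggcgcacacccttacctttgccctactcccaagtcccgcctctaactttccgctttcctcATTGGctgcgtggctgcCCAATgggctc
Echs1, chr7:140116477-140116596, minus strand: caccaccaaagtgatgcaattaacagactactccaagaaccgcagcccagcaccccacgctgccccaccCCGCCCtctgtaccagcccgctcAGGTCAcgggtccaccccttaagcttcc
Eci1, chr17:24426521-24426640, plus strand: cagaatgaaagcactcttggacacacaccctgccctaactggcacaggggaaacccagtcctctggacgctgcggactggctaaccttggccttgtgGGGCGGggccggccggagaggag

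These stretches were rich in G and C, at 69.4% between Hadha and Hadhb, 63.3% upstream of Etfa, 61.7% upstream of Echs1 and 63.3% upstream of Eci1. The capitals mark the Sp1 motif GGGCGG, which begins at bases 1 and 66 of the stretch between Hadha and Hadhb, 51 bases before the Echs1 start in reverse and 23 bases before the Eci1 start. They also mark the CCAAT box, 28 bases (in reverse) and 11 bases before the Etfa start, and the nuclear receptor motif AGGTCA, 28 bases before the Echs1 start. In RefSeq windows of 300 bases, from 250 before to 50 after a start, both strands of 25 member genes were searched for 6 motifs. Acaa2, Acad9, Acat1, Crat, Decr1 and Hsd17b4 were not searched, and the shares of members below are of the 25 searched. GGGCGG was found in 84.0% of these members, against 70.2% of tested genes and 35.7% of all 32851 windows. CCAAT was found in 56.0% of members against 43.9% of tested genes and 37.4% of all windows, and AGGTCA in 20.0%, 14.9% and 16.3%. The members with AGGTCA were Acadm, Acadvl, Cpt1a, Cpt1c and Echs1. The direct repeat AGGTCANAGGTCA, which PPAR with RXR is known to bind, and the ERR motif TCAAGGTCA both contain AGGTCA. Both were found in 0 of the 25 searched members, against 0.0551% and 0.309% of tested genes. At such low shares, 0 of 25 cannot show whether members have fewer of these motifs than other genes. The NRF1 motif GCGCANGCGC was found in Etfb and Etfdh, 8.0% of members against 12.6% of tested genes.

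AML12 samples expressed this pathway throughout. The mean TPM over all 8 samples ran from 3.05 for Ehhadh to 272 for Acsl5, a span of 89.2 times, and 19 members had a mean above 50. Of the 30 pairs of neighbours in the order of levels, only 10 were apart in all 8 samples. Acsl5 stood above Etfb and Acadl, which overlapped at means of 204 and 200, and these stood above Echs1 and Eci2 at 156 and 147. Etfa and Cpt1a followed at 120 each, then a run of 12 genes with overlapping neighbours from Acsl3 at 86.4 to Acsl4 at 52.9. At the low end, Ppard, Acsl1 with Cpt1c, and Ehhadh formed separate steps. The samples of a group lay close together: the median coefficient of variation over the members was 3.07% in controls and 4.06% in exposed samples.

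**Figure D1:**
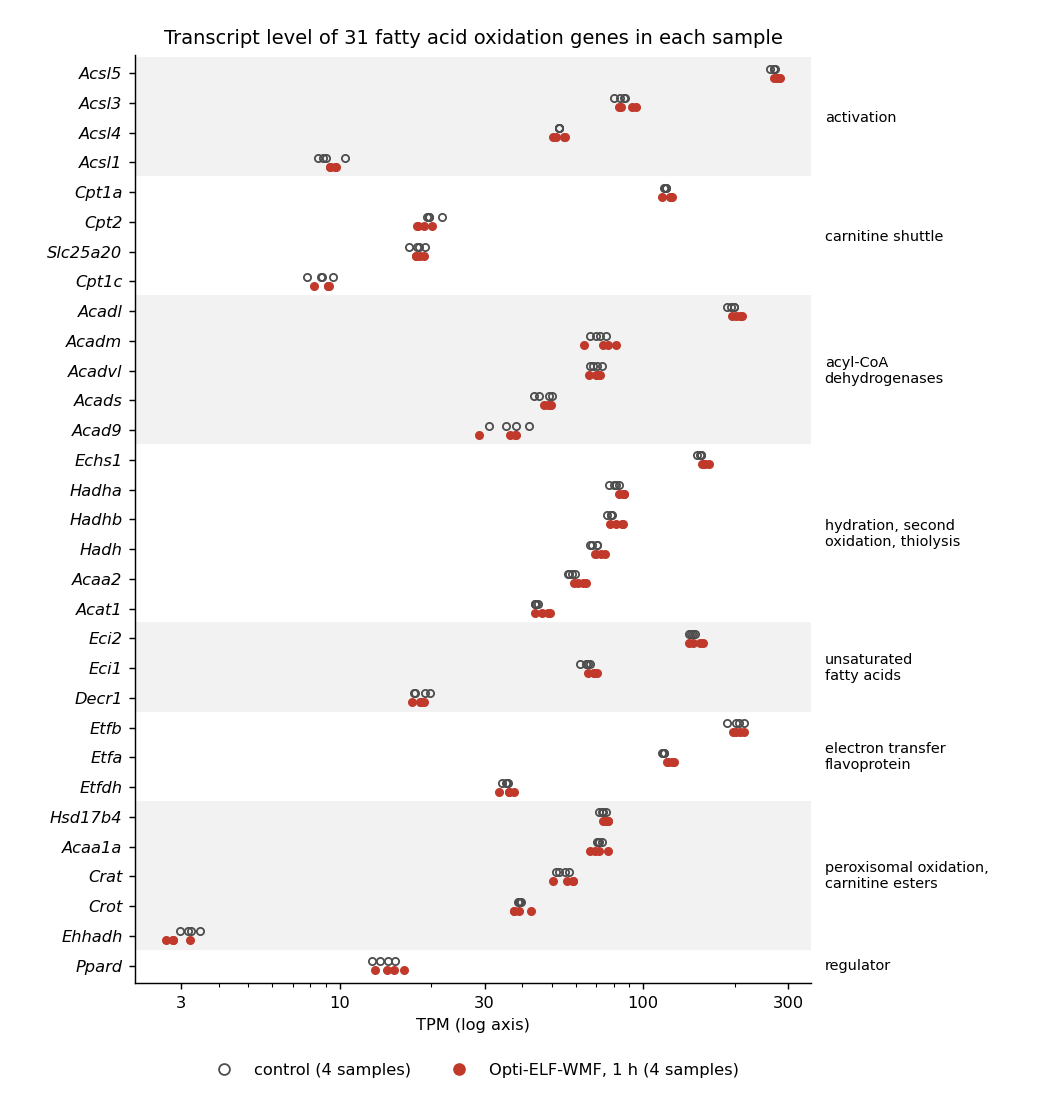
TPM of each of the 31 genes in each sample, on a log axis, with open circles for 4 control samples and filled circles for 4 Opti-ELF-WMF samples, grouped by step of the pathway. Differences between genes, from about 3.05 for Ehhadh to 272 for Acsl5 in the mean, are far wider than those between the groups.

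The hepatocyte label was checked against marker genes. The hepatocyte factor Hnf4a was at 180 to 218 TPM and the plasma protein gene Ttr at 333 to 384, while Apoa1 was at 3.12 to 5.29. Alb, the albumin gene, was at 52.5 to 58.2 in controls and 46.1 to 53.0 in exposed samples. Its difference was -0.15 (95% interval -0.26 to -0.033, adjusted p = 0.210 by limma). On the log2(TPM + 1) scale that was further from 0 than for any member. As a share of the control mean, however, exposed Alb was at 90.2% and exposed Ehhadh at 89.7%. Apoe went the other way, with a difference of 0.15 (95% interval 0.0032 to 0.3, adjusted p = 0.309 by limma). Cebpa, Serpina1a and Afp were low, with means of 8.57, 5.8 and 0.976 TPM. The 8 hepatocyte markers summed to 623 to 687 TPM in controls and 634 to 699 in exposed samples. The keratin genes Krt8 and Krt18 were each at 1825 TPM or more in all samples. Of 3 biliary markers, Krt19 was at 1101 to 1244 TPM and Sox9 at 29.8 to 32.1, while Epcam did not exceed 0.13. No sample exceeded 1.20 TPM for any of 5 fibroblast and stellate markers or 0.08 for any of 3 endothelial markers, and of 3 immune markers Adgre1 was at 0 throughout while Cd68 reached 2.21. The 3 epithelial markers summed to 4200 to 4390 TPM in controls and 4470 to 4680 in exposed samples. As deposited, Krt8 and Krt18 were higher in every exposed sample than in any control. Without the mitochondrial genome in the total, values are multiplied by a factor of each sample, 1.0981 in control sample 4 and 1.0833 in exposed sample 3. Krt8, at 2280.3 and 2304.62 in these samples, then overlaps, while Krt18 stays apart. Whether the other markers differed on that total was not tested. Whether the epithelial markers or Alb had a part in the differences below was not tested.

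The acyl-CoA synthetases that activate long-chain fatty acids were led by Acsl5 (plus strand, chr19:55251938-55297720). Its TPM was 269, 261, 269 and 270 in control samples 1 to 4 and 275, 283, 278 and 268 in exposed samples 1 to 4. Exposed sample 4 lay among the controls, and the log2 difference was 0.046 ± 0.024 (SE; 95% interval -0.0085 to 0.10; adjusted p = 0.403 by limma). Acsl3, an isoform of the endoplasmic reticulum and lipid droplets, spanned 79.9 to 86.9 in controls and 83.4 to 94.5 in exposed samples. Acsl4, which prefers arachidonate, lay within 52.8 to 52.9 in all 4 controls, the narrowest spread among the members, and at 50.4 to 55.2 after exposure, on both sides of them. Acsl1, a main isoform of liver and fat tissue, was the lowest of the 4 members at 8.51 to 10.4 and 9.30 to 9.72 TPM. Its ratio to Acsl5 was 0.0344 ± 0.0030 in controls and 0.0344 ± 0.0014 in exposed samples (SD, n = 4 each). The differences of all 4 synthetases were above 0 with intervals that held 0.

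In the carnitine shuttle, Cpt1a (plus strand, chr19:3322334-3385733), the liver carnitine palmitoyltransferase of the outer membrane, was the most abundant. It measured 117, 118, 119 and 119 TPM in control samples and 116, 124, 125 and 122 in exposed samples. Exposed sample 1 lay below all controls and the other 3 above them, and the difference was 0.039 ± 0.028 (adjusted p = 0.561). Cpt2 (minus strand, chr4:107903981-107923610), which turns acylcarnitine back into acyl-CoA inside the mitochondrion, had one of the lower differences among the members. It spanned 19.4 to 21.7 in controls and 18.0 to 20.1 in exposed samples, with a difference of -0.094 (95% interval -0.21 to 0.021, adjusted p = 0.420). The carrier Slc25a20 spanned 16.9 to 19.1 and 17.9 to 19.0. Cpt1c, known mainly from brain, was at 7.82 to 9.52 and 8.24 to 9.20, and its ratio to Cpt1a was 0.0735 in both group means.

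The acyl-CoA dehydrogenases carry out the first oxidation, each for a range of chain lengths. Acadl (minus strand, chr1:66830839-66863277), the long-chain enzyme, led with 189, 199, 194 and 199 TPM in controls and 208, 212, 201 and 196 in exposed samples. Exposed samples 1, 2 and 3 lay above every control and sample 4 lay among them, with a difference of 0.067 ± 0.030 (95% interval -0.00086 to 0.14, adjusted p = 0.327). The medium-chain gene Acadm spread more after exposure, from 63.6 to 81.3 TPM, than in controls, from 66.5 to 75.5. Acadvl, for very long chains, was at 66.8 to 73.0 and 66.2 to 72.2, with a difference of 0.0010. Of the 75-base windows of its annotated transcripts, 19.5% also lie in transcripts of the neighbouring Dvl2, so its value may be less certain. Windows were counted on both strands although the libraries were stranded, and the effect on the value was not tested. Acads, for short chains, was at 43.5 to 50.1 and 47.0 to 49.6. Acad9, also an assembly factor of complex I, was the least even member: its coefficient of variation was 12.7% in controls and 12.5% in exposed samples, and its interval ran from -0.29 to 0.19. Other annotated genes share 10.6% of its 75-base windows, and the same holds for 8.77% of those of Acsl1 and 6.77% of those of Eci2.

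The enzymes of hydration, second oxidation and thiolysis had all 6 members above 0 and the highest median difference of the steps, 0.080, against 0.026 for all tested genes. Echs1, the short-chain enoyl-CoA hydratase, measured 150, 155, 154 and 154 TPM in controls and 159, 164, 160 and 156 in exposed samples. The groups did not overlap, and the difference was 0.059 ± 0.024 (95% interval 0.0046 to 0.11, adjusted p = 0.280). Hadha, the subunit with hydratase and long-chain hydroxyacyl-CoA dehydrogenase activity, measured 80.3, 77.2, 81.6 and 83.1 in controls and 85.4, 86.2, 86.3 and 83.3 in exposed samples. The groups did not overlap, although control sample 4 and exposed sample 4 were 83.08 and 83.27, and the difference was 0.082 ± 0.029 (95% interval 0.016 to 0.15, adjusted p = 0.223).

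Hadhb, the thiolase subunit of the same complex that shares the upstream stretch printed above with Hadha, spanned 76.2 to 78.6 TPM in controls and 77.4 to 85.5 in exposed samples, with a difference of 0.078 ± 0.035 (adjusted p = 0.321). Of its 75-base windows, 16.7% are shared with other annotated genes. The ratio of Hadha to Hadhb was 1.04 ± 0.042 in controls and 1.04 ± 0.032 in exposed samples (SD, n = 4 each), so both subunits were at nearly the same level per length in each group.

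Acaa2, the mitochondrial 3-ketoacyl-CoA thiolase, had the highest difference of the members. It measured 58.3, 56.8, 56.7 and 59.6 TPM in controls and 60.8, 63.2, 64.9 and 59.2 in exposed samples. Exposed sample 4 lay below control sample 4, so the groups overlapped, and the difference was 0.10 ± 0.035 (95% interval 0.020 to 0.18, adjusted p = 0.222). Acat1, which splits acetoacetyl-CoA, spanned 43.9 to 45.0 in controls and 44.0 to 49.3 in exposed samples, with a difference of 0.085 and an adjusted p of 0.321. Hadh, the dehydrogenase for shorter hydroxyacyl chains, spanned 66.8 to 70.2 and 69.5 to 74.8.

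**Figure D2:**
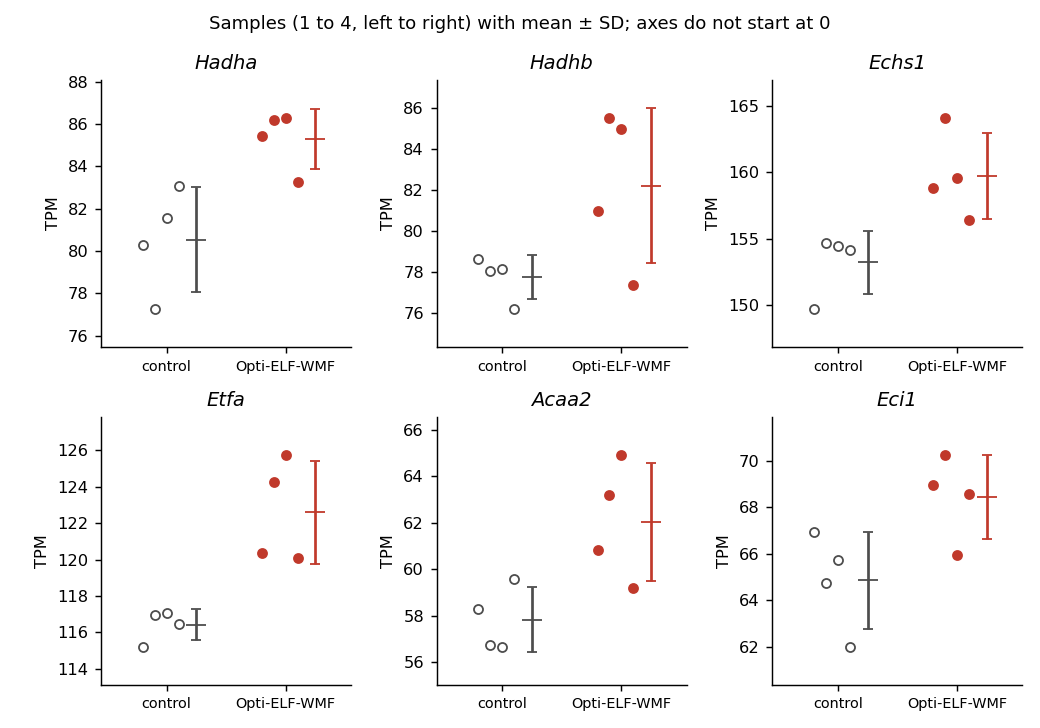
TPM of Hadha, Hadhb, Echs1, Etfa, Acaa2 and Eci1 in samples 1 to 4 of each group, from left to right, with mean ± SD beside them; the axes do not start at 0. In Hadha, Echs1 and Etfa all 4 exposed samples lie above all 4 controls, and exposed sample 4 is the lowest exposed sample in each panel but that of Eci1.

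Unsaturated chains need isomerases and a reductase to enter the spiral. Eci2, an enoyl-CoA isomerase found in peroxisomes and mitochondria, was the most abundant at 148, 145, 141 and 144 TPM in controls and 146, 157, 153 and 141 in exposed samples. Exposed samples 2 and 3 lay above every control and samples 1 and 4 lay among the controls, and the difference was 0.047 ± 0.036 (adjusted p = 0.579). Eci1, the mitochondrial isomerase, measured 66.9, 64.8, 65.7 and 62.0 in controls and 69.0, 70.2, 65.9 and 68.6 in exposed samples. Exposed sample 3 lay below control sample 1, and the difference was 0.077 ± 0.033 (95% interval 0.0029 to 0.15, adjusted p = 0.303). Decr1, the 2,4-dienoyl-CoA reductase, spanned 17.5 to 19.8 and 17.3 to 18.9.

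Of the electron transfer flavoprotein, which takes electrons from the acyl-CoA dehydrogenases, Etfb (plus strand, chr7:43444083-43457800) was the more abundant subunit by TPM. It measured 203, 207, 188 and 215 in controls and 215, 209, 201 and 197 in exposed samples. The groups overlapped, with a difference of 0.018 ± 0.043 (adjusted p = 0.888 by limma). Of the 75-base windows of Etfb, 39.6% also lie in another annotated gene, Gm45233. No gene of that symbol was listed with a TPM, and whether the overlap affects the level of Etfb was not tested. Etfa, the other subunit, measured 115, 117, 117 and 116 in controls and 120, 124, 126 and 120 in exposed samples. Every exposed sample lay above every control, and with a difference of 0.074 ± 0.025 (95% interval 0.019 to 0.13) its adjusted p of 0.194 was the smallest of the members. The ratio of Etfa to Etfb was 0.574 ± 0.033 in controls and 0.597 ± 0.028 in exposed samples (SD, n = 4 each), less far apart than 1 SD of either group. Etfdh, the dehydrogenase that hands these electrons to ubiquinone, spanned 34.2 to 36.0 and 33.6 to 37.6.

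Among genes of peroxisomal oxidation and carnitine esters, Hsd17b4, the peroxisomal bifunctional enzyme for branched and very long chains, was the most abundant. It measured 73.8, 71.4, 73.0 and 75.4 TPM in controls and 74.99, 76.7, 76.5 and 73.8 in exposed samples, with overlap and a difference of 0.040 ± 0.028 (adjusted p = 0.535). Ehhadh, the other bifunctional enzyme and a classical PPAR alpha target, was the lowest member at 2.99 to 3.46 in controls and 2.68 to 3.21 in exposed samples, with a difference of -0.12 (95% interval -0.29 to 0.049, adjusted p = 0.490). The thiolase Acaa1a spanned 70.2 to 72.9 and 66.7 to 76.4, with 9.5% of its windows shared with its close copy Acaa1b. Crat and Crot, which move short and medium acyl groups onto carnitine, spanned 51.5 to 56.7 and 38.8 to 39.6 in controls and 50.4 to 58.8 and 37.5 to 42.6 after exposure. Ppard, a nuclear receptor of fatty acids and the only regulator among the members, measured 12.8, 13.5, 15.2 and 14.4 in controls and 13.1, 14.3, 15.1 and 16.2 in exposed samples, with a difference of 0.067 ± 0.072 (adjusted p = 0.711).

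**Figure D3:**
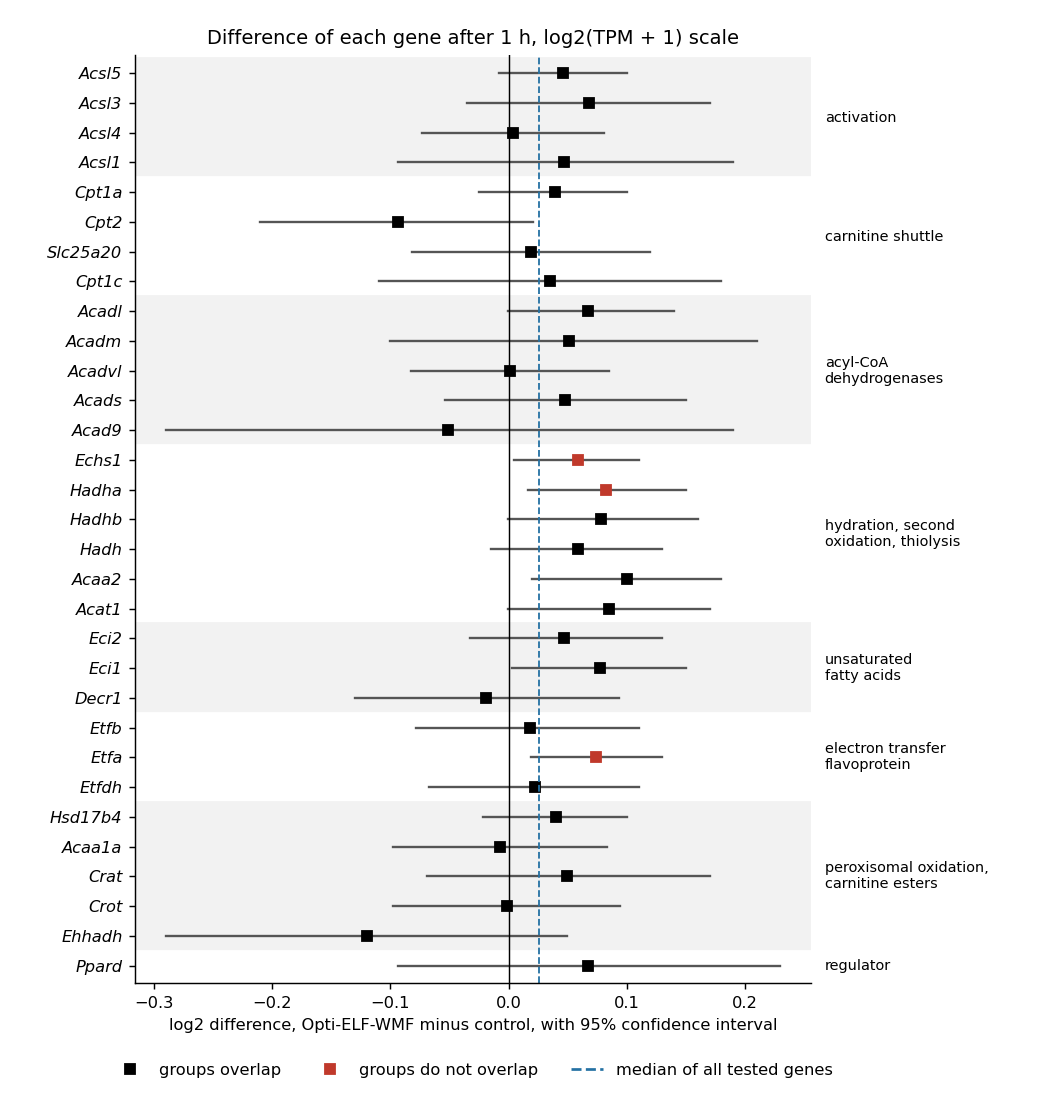
Log2 difference of each gene, Opti-ELF-WMF minus control on the log2(TPM + 1) scale, with its 95% confidence interval; red marks genes whose groups do not overlap and the dashed line is the median of all tested genes, 0.026. In 26 of 31 genes the whole interval lies between -0.2 and 0.2.

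Over the members as a whole, 25 of 31 differences were above 0, beside 63.7% of all tested genes, and the median difference was 0.047 beside 0.026. An unadjusted p under 0.05 was reached by 5 members in the higher direction (Acaa2, Echs1, Eci1, Etfa and Hadha), which is 16.1%, while 12.0% of all tested genes did so. In the lower direction 0 members did so, beside 3.65% of all tested genes. Groups that did not overlap were found in 3 members with higher exposed values, 9.68% beside 8.01% of all tested genes, and in 0 members with lower exposed values beside 1.86%. The shares of members past these limits in the higher direction were thus near those of all tested genes. In 26 members the 95% interval lay within -0.2 and 0.2, that is within 0.871 to 1.15 times the control value of TPM + 1, and the lowest and highest bounds of any member were 0.819 and 1.17 times on that scale. The scale understates the difference of Ehhadh, the lowest member, which was -0.16 with a pseudocount of 0.01.

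Single samples weighed on these counts. Exposed sample 4 was the lowest of its group for 15 of 31 members, 48.4%, against 23.6% of all tested genes, and exposed sample 2 was the lowest for 1 member, 3.23% against 12.7%. Without exposed sample 4, 10 members did not overlap (8 higher and 2 lower), at a background of 15.3% of all tested genes, and 9 had an unadjusted p under 0.05 with 0 passing the adjusted threshold, where 11.9% of all tested genes were higher and 3.94% lower at that unadjusted p. Those 9 were Acaa2, Acadl, Acat1, Acsl5, Echs1, Etfa, Hadha and Hadhb, all higher, and Cpt2, which was lower. Without control sample 2, only 1 member had an unadjusted p under 0.05, where 9.6% of all tested genes were higher and 3.09% lower.

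Summed by step, the 6 genes of hydration, second oxidation and thiolysis reached 478.7, 480.9, 483.1 and 487.0 TPM in controls and 510.2, 518.0, 514.0 and 489.8 in exposed samples, without overlap. The sums of the other steps overlapped between the groups, as for activation at 402 to 421 and 419 to 437 TPM and for the acyl-CoA dehydrogenases at 416 to 423 and 420 to 445. All 31 genes together took 2305 to 2345 TPM in controls and 2355 to 2445 in exposed samples.

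**Figure D4:**
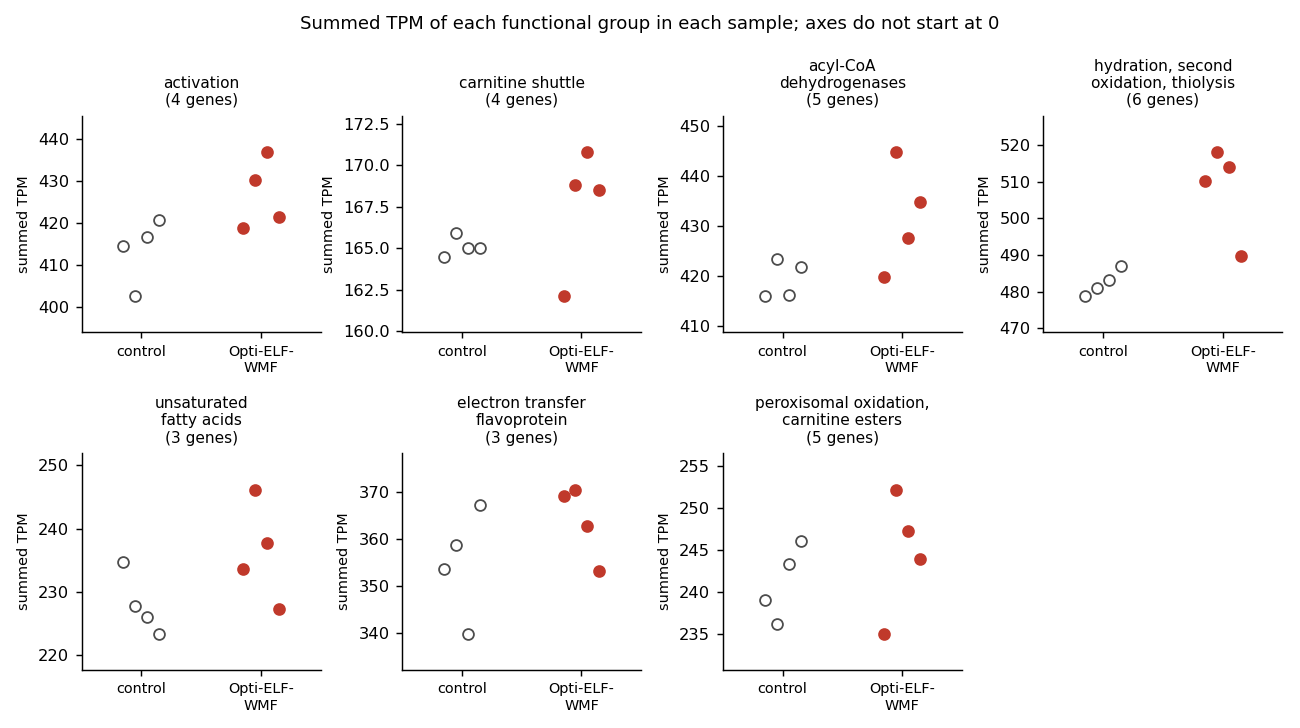
Summed TPM of the genes of each step in samples 1 to 4 of each group, open for control and filled for Opti-ELF-WMF; the axes do not start at 0 and differ between panels. Only the panel of hydration, second oxidation and thiolysis shows no overlap, with exposed sample 4 at 489.8 just above control sample 4 at 487.0.

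The mitochondrial share differed between the groups, as given above. Because every sample sums to the same total, each value was recomputed as a share of the TPM left after removing the 37 genes of the mitochondrial genome. The median member difference was then 0.018 beside -0.0016 for all tested genes, 20 of 31 members were above 0, and Acsl4, Acadvl, Etfb, Etfdh and Slc25a20 went from above to below 0. Etfa was the only member whose groups still did not overlap, 1 of 31 beside 7.17% of all tested genes, at 126.2 to 129.2 against 129.4 to 136.2, with a difference of 0.044 (95% interval -0.011 to 0.099, adjusted p = 0.540). The summed level of all 31 genes then overlapped, at 2528 to 2576 and 2539 to 2613, as did that of hydration, second oxidation and thiolysis, at 524.4 to 534.8 and 529.6 to 556.8.

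On that scale the only member with an unadjusted p under 0.05 was Cpt2, which was lower, with a difference of -0.12 (95% interval -0.24 to -0.0068, adjusted p = 0.406). It measured 21.53, 23.74, 21.36 and 21.63 in controls and 20.32, 19.24, 19.48 and 21.73 in exposed samples, so exposed sample 4 lay among the controls. Median-of-ratios and upper-quartile scaling also gave Cpt2 alone, at -0.12 and -0.13. Among all tested genes, those with an unadjusted p under 0.05 were mostly higher in exposed samples as deposited (12.0% higher and 3.65% lower). The split was 5.68% and 5.68% after removing the mitochondrial genome, 5.55% and 6.23% by median-of-ratios and 4.85% and 6.61% by upper-quartile scaling. Each of these scalings multiplies all genes of a sample by the same factor, so it shifts all differences together.

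**Figure D5:**
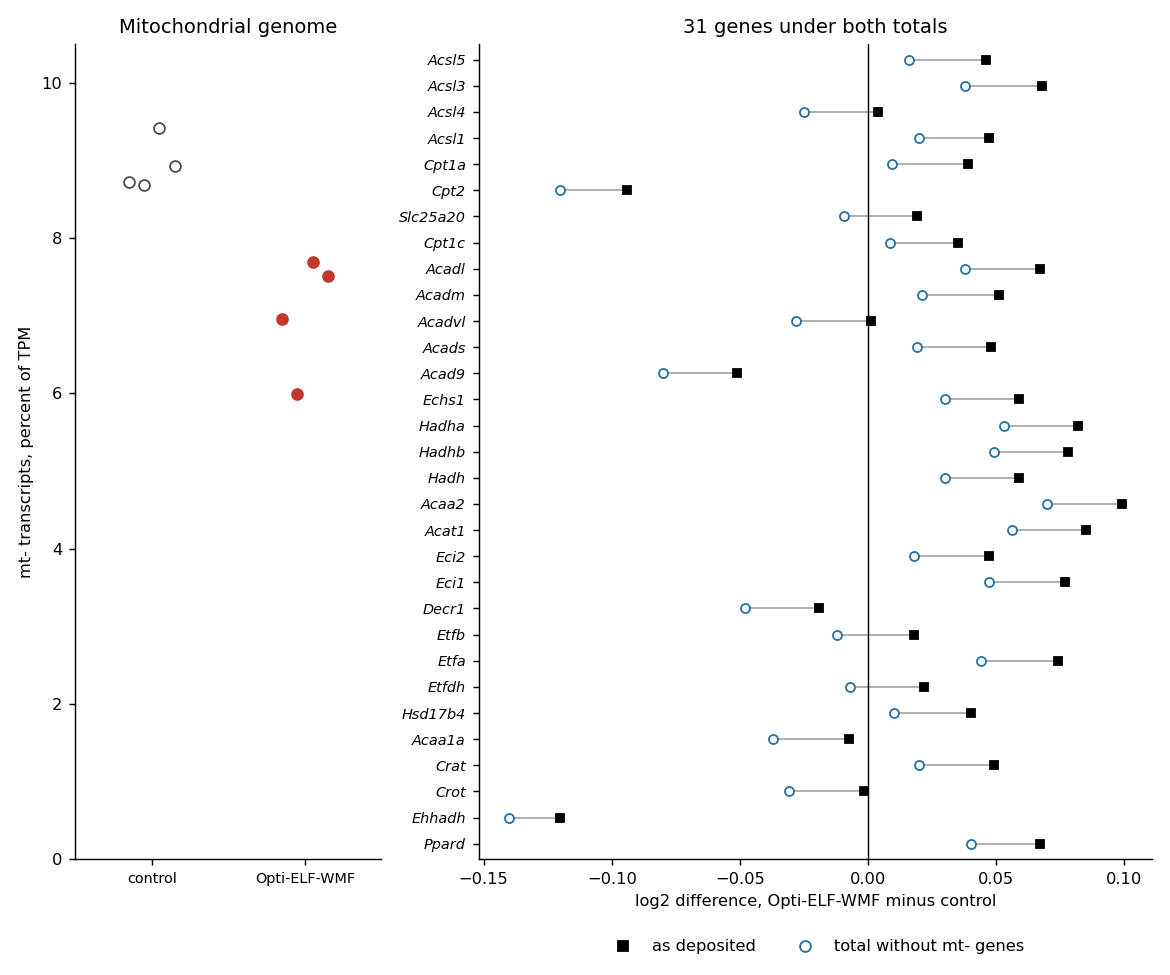
Left, share of TPM from the 37 genes of the mitochondrial genome in each sample, 8.69 to 9.42% in controls and 5.99 to 7.69% in exposed samples. Right, log2 difference of each member as deposited (squares) and with those genes removed from the total (circles). The removal moves every member to the left by construction and takes the median from 0.047 to 0.018.

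Of 75 other genes listed around this pathway, 74 were in the tables and 51 were tested. None passed an adjusted p of 0.05 (0 genes by limma), 8 had an unadjusted p under 0.05 with higher and 4 with lower exposed values, and the median difference was 0.0034. Of all tested genes, 12.0% were higher and 3.65% lower at that p, and 8.01% and 1.86% did not overlap. Groups did not overlap for Pnpla2, the lipase that opens triglyceride breakdown, at 71.0 to 72.6 and 76.5 to 77.5 TPM (difference 0.10, adjusted p = 0.126), and for its coactivator Abhd5 at 46.3 to 48.5 and 49.4 to 53.1 (0.12, adjusted p = 0.149). Rxrb, a partner of PPAR receptors, was at 28.3 to 28.9 in controls and 26.5 to 27.0 in exposed samples, again without overlap (-0.089, adjusted p = 0.194 by limma). The levels of these genes are as deposited. Without the mitochondrial genome in the total, values are multiplied by a factor of each sample, 1.104 in control sample 3 and 1.0833 in exposed sample 3. Abhd5, at 48.47 and 49.35 in these samples, then overlaps, while Pnpla2 and Rxrb stay apart. By step, unadjusted p under 0.05 was reached by 3 of 6 tested genes of triglyceride mobilisation, all higher, by 0 of 8 other genes of mitochondrial oxidation, and by 1 higher and 1 lower of 12 other peroxisomal genes. Of the uptake and binding genes, 6 of 11 were tested, with 1 higher and 1 lower. Among other acyl-CoA synthetases 1 of 4 tested genes was higher, among ketone body genes 1 of 2, and among PPAR targets outside oxidation 1 was higher and 1 lower of 3, while carnitine uptake and synthesis and malonyl-CoA control had 0 of 2 each. Of the transcriptional regulators 6 were tested, and Rxrb was the only one with an unadjusted p under 0.05.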

How the data were processed

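Total RNA from AML12 cells was made into stranded mRNA libraries and read as paired ends on an Illumina NovaSeq. The authors deposited 1 TPM table per sample. The submitters' processing notes name Trimmomatic 0.39, STAR 2.7.4a, RSEM 1.3.3 and the build mm10; the annotation is not given in the sources used here. TPM keeps no depth, so the counting error of each value is unknown and no count test was run. The 12122 genes that reached a TPM of 1 in 4 or more samples were kept. Their log2(TPM + 1) was compared between 4 control and 4 Opti-ELF-WMF samples with limma 3.58.1 (lmFit, eBayes with trend, two-sided) in R 4.3.3, with p adjusted by Benjamini-Hochberg over all of them. The pseudocount understates differences of low genes. No pair of samples held identical values in more than 0.429% of tested genes. The fit was tested on simulated data. Windows of 75 bases shared between annotated transcripts were counted on both strands, from GENCODE M21.

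The 31 members and all lists were chosen with earlier results of these data known. Values per sample are given for members whose groups do not overlap or whose unadjusted p is under 0.05, and for the most abundant of each step; others by range. Of the other genes around the pathway, those without overlap are named. Alternatives covered pseudocounts of 0.1 and 0.01, 2 filters, 3 scalings, the trend, a replicate block and leaving out each sample.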

Additional observations from a re-analysis of the deposited data

Results flagged for a closer look

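Of 62 groups of 4 values (31 genes in each of 2 conditions), 3 held a sample far from the others by Dixon's criterion, while chance alone flags about 3.1. Cpt2 was 21.68 TPM in control sample 2 and 19.35 to 19.70 in the other controls, and without that sample its difference was -0.058 (adjusted p = 0.686) in place of -0.094. Echs1 was 149.68 in control sample 1 and 154.12 to 154.63 in the other controls, and without that sample its difference was 0.048 (adjusted p = 0.445) in place of 0.059. Cpt1c was 8.24 in exposed sample 4 and 9.13 to 9.20 in the other exposed samples.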

How the results depend on the processing

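No member passed the adjusted threshold under any of 9 alternatives or when any of the 8 samples was left out. The number of members with an unadjusted p under 0.05 was 5, and became 1 under each of the 3 scalings, 3 without the trend and 8 when every gene above 0 in any sample was fitted; leaving out samples gave 1 to 9 (1 without control sample 2; 3 each without control samples 3 and 4 and exposed samples 2 and 3; 9 without exposed sample 4). Of all tested genes, 12.0% were higher and 3.65% lower at that p as deposited, 4.85 to 5.68% and 5.68 to 6.61% under the scalings, 10.1% and 4.12% without the trend, 6.82% and 3.27% when every gene above 0 was fitted, and 8.79 to 13.4% and 2.72 to 4.23% with a sample left out. Members whose groups did not overlap numbered 3, and became 1 by median-of-ratios scaling, 1 without the mitochondrial genome and 0 by upper-quartile scaling; leaving out samples gave 3 to 10 (5 without control sample 4, 5 without exposed sample 1, 10 without exposed sample 4). The share of all tested genes without overlap was 9.87% as deposited, 7.17 to 7.62% under the scalings and 12.4 to 15.9% with a sample left out. The median member difference of 0.047 became 0.018, 0.014 and 0.018 under median-of-ratios, upper-quartile and mitochondrial rescaling, where the median of all tested genes moved from 0.026 to -0.0013, -0.0053 and -0.0016. These scalings multiply all genes of a sample by the same factor. Median-of-ratios scaling centres the median gene of each sample, so a median of all tested genes near 0 follows by construction. Upper-quartile scaling evens out the upper quartile between samples, and removing the mitochondrial genome changes the total. Why the median-of-ratios and upper-quartile factors differed between the groups was not tested. In that order of scalings, differences turned below 0 for Acadvl (-0.028, -0.032, -0.028), Acsl4 (-0.025, -0.029, -0.025), Etfb (-0.012, -0.016, -0.012), Etfdh (-0.0066, -0.011, -0.0069) and Slc25a20 (-0.0088, -0.013, -0.0092). Leaving out 1 sample at a time also turned small differences: Acadvl spanned -0.018 to 0.025, Acsl4 -0.016 to 0.027, Etfb -0.018 to 0.045, Etfdh -0.0013 to 0.053, Slc25a20 -0.011 to 0.045, Cpt1c -0.0092 to 0.076, Acaa1a -0.042 to 0.022, Acad9 -0.12 to 0.042, Crot -0.043 to 0.018 and Decr1 -0.044 to 0.011. Of all tested genes, 0 to 2 passed the adjusted threshold across the alternatives.

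Samples with the same number did not deviate together, with correlations of -0.0348, -0.0419, 4e-04 and 0.0258. These values cannot show whether such samples were prepared together, which the labels do not say. With the replicate block, 5 members had an unadjusted p under 0.05 (Acat1 and Hadhb in place of Echs1 and Eci1), 0 were called and the median difference was 0.047. The deposited values hold no read counts, so depth could not be weighed, and the median standard error of a member's log2 difference was 0.040.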

Other observations

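Several genes that liver tissue uses around fatty acid oxidation were at or near 0 in AML12 cells; apart from Ppara, the genes named here were picked after their values were seen. Fabp1, the liver fatty acid binding protein gene, was listed at 0 in 7 of 8 samples. The uptake genes Slc27a2 and Slc27a5 and the PPAR alpha target Cyp4a10 did not exceed 0.02 TPM in any sample, and Cyp4a14 was listed at 0 in all of them. Ppara was at 7.25 to 8.77 TPM in controls and 6.21 to 8.20 in exposed samples. Fabp5, a binding protein of epidermis and other tissues, was at 181 to 196 and 195 to 201 TPM.

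Cpt1b, the muscle form of the outer membrane transferase, was 5.96 TPM in control sample 4 and 1.37 to 2.83 in the other controls, against 1.47 to 2.53 in exposed samples.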
